A study of Arabidopsis thaliana with 20 samples.

Results

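HEMA3 (AT2G31250), CHLM (AT4G25080), CHLP (AT1G74470) and Z-ISO (AT1G10830) encode 4 enzymes on the plastid routes to chlorophyll and carotenoids. They were taken by name: each is the single gene listed by the annotation for 1 row of the array table, and together they are 4 of the 692 rows that list exactly 1 gene and of 3439 rows in all. All 4 passed the filter on missing values. The set was chosen by pathway, but with the genotype differences of these genes already known, and HEMA3 and Z-ISO had passed the test of that comparison. For this reason their differences between genotypes are given as a description, without p-values.

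RNA abundance was measured by array in total RNA of Arabidopsis thaliana. The 10 columns labelled WT are ecotype Columbia 0, and the 10 labelled atpc1-1 are a mutant in the same ecotype, labelled as without the γ subunit of ATP synthase. Both genotypes were grown on MS medium, a defined mineral medium for plant culture, and no treatment is named for either. The labels give no age, tissue, light regime or number of plants. Since the RNA is bulk, fewer cells that express a gene and less of its RNA per cell cannot be told apart.

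Chlorophyll is built from glutamate. Glutamyl-tRNA reductase, the enzyme of the HEMA genes, makes the first committed step toward 5-aminolevulinic acid, from which all plant tetrapyrroles arise, and insertion of magnesium or iron into protoporphyrin then divides the chlorophyll branch from the heme branch. The phytyl tail of chlorophyll and the carotenoids both come from geranylgeranyl diphosphate, made by the plastid isoprenoid pathway. Carotenoids protect chlorophyll from light damage and take part in light harvesting, and free chlorophyll intermediates are phototoxic, so both routes are known for tight control in green tissue.

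The authors deposited linear intensities, whose column means lay between 0.920 and 1.06. Rows carry different probes, so brightness was compared between genotypes for a gene and not between genes. Columns with adjoining numbers (1 and 2, 3 and 4, and so on) were treated as duplicates and averaged, because in each genotype 10 of 10 columns correlated best with that partner. Taken on deviations from each row's genotype mean, partner correlations were 0.228 to 0.743 in WT but 0.0078 to 0.489 in atpc1-1. With any other column they reached at most 0.089 in WT and -0.024 in atpc1-1. Subtracting that mean draws the correlations of unrelated columns below 0, so 0 is not the level of no likeness. The lowest atpc1-1 partner correlation still lay little above the highest one between other columns, and the labels do not call partner columns duplicates. Each genotype then has 5 replicates. Nothing in the labels says that replicates came from separate cultures or plants, so their spread may be technical.

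The genotypes differed over the table as a whole. The column medians of WT (0.339 to 0.493) all exceeded those of atpc1-1 (0.130 to 0.224), and 3.63% to 4.36% of rows stood at 0 in WT columns against 5.70% to 20.8% in atpc1-1 columns. For this reason columns were quantile normalised, which gives every column about the same distribution. WT replicate 5 stood apart, with Spearman correlations of 0.810 to 0.828 with the other WT replicates, which correlated with one another at 0.883 to 0.953, and of 0.765 to 0.842 with the atpc1-1 replicates. No row lists ATPC1, the gene of the γ subunit, alone, and the row that lists it with ATPC2 ranged from 0.315 to 0.760 in WT columns and from 0.113 to 1.96 in atpc1-1 columns, so it does not check the genotype labels. Of 7 green-tissue markers, the 5 with a row of their own (PSBW and PSBY of photosystem II, PSAN of photosystem I, the antenna gene LHCB1.5 and PRK of the Calvin cycle) were above 0 in all 20 columns. On the deposited scale PSBY was higher in every atpc1-1 column (1.80 to 3.11) than in any WT column (1.18 to 1.64). PSBW spanned 29.9 to 45.2 across WT against 40.7 to 59.3 across atpc1-1, PRK likewise 0.704 to 1.36 against 1.17 to 2.99, while LHCB1.5 (7.90 to 32.8 against 15.9 to 29.7) and PSAN (2.06 to 3.47 against 1.68 to 3.43) overlapped widely. Whether a difference in tissue makeup takes part in the pigment gene values was not tested. None of the root, seed or pollen markers that were looked for had a row of its own.

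Of the 4 pigment genes, HEMA3 had the clearest separation between genotypes. Every atpc1-1 column lay below every WT column on the deposited scale, which held for 21.0% of all rows. After normalisation every atpc1-1 replicate lay below every WT replicate, which held for 10.3% of tested rows. With median centring the HEMA3 difference was -0.49 and did not pass the test. Z-ISO also had every atpc1-1 column below WT on the deposited scale, but its replicates overlapped after normalisation. CHLP was among the brightest rows of every column and stood slightly lower in atpc1-1, a direction that turned when columns were centred on their medians. CHLM was dim, and the direction of its difference was not settled.

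HEMA3 encodes an isoform of glutamyl-tRNA reductase. On the deposited scale its intensity in the 10 WT columns had a lowest value of 1.07, a median of 1.52 and a highest value of 2.49. In the 10 atpc1-1 columns the lowest value was 0.371, the median 0.484 and the highest 0.667. Every atpc1-1 column therefore lay below every WT column, as in 21.0% of all rows, and the WT median was 3.13 times the atpc1-1 median. The median log2 difference of all tested rows on this scale was itself -1.22. After quantile normalisation the WT replicates 1 to 5 stood at 1.15, 0.41, -0.15, 0.55 and 0.26 on the log2 scale. The atpc1-1 replicates 1 to 5 stood at -0.83, -0.28, -1.01, -0.79 and -0.32. The groups did not overlap, with WT replicate 3 the lowest of WT and atpc1-1 replicate 2 the highest of atpc1-1. The WT mean was 0.44 ± 0.47 (SD, n = 5) and the atpc1-1 mean -0.65 ± 0.33 (SD, n = 5), a log2 difference of -1.09 (SE 0.29) or 2.13-fold.

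The rank of HEMA3 among all rows of a column, which no scaling of a column can change, had a median at the 87.6th percentile in WT (range 81.0 to 92.9) and at the 77.4th in atpc1-1 (range 72.0 to 81.7). In 8 of 10 atpc1-1 columns the rank was below that of every WT column. The annotation gives HEMA3 as the sole gene of this row, while the paralogs HEMA1, regarded as the main isoform of green tissue, and HEMA2 have no row of their own. The probe's sequence was not used here, so any share of this signal from related transcripts was not tested.

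**Figure D1:**
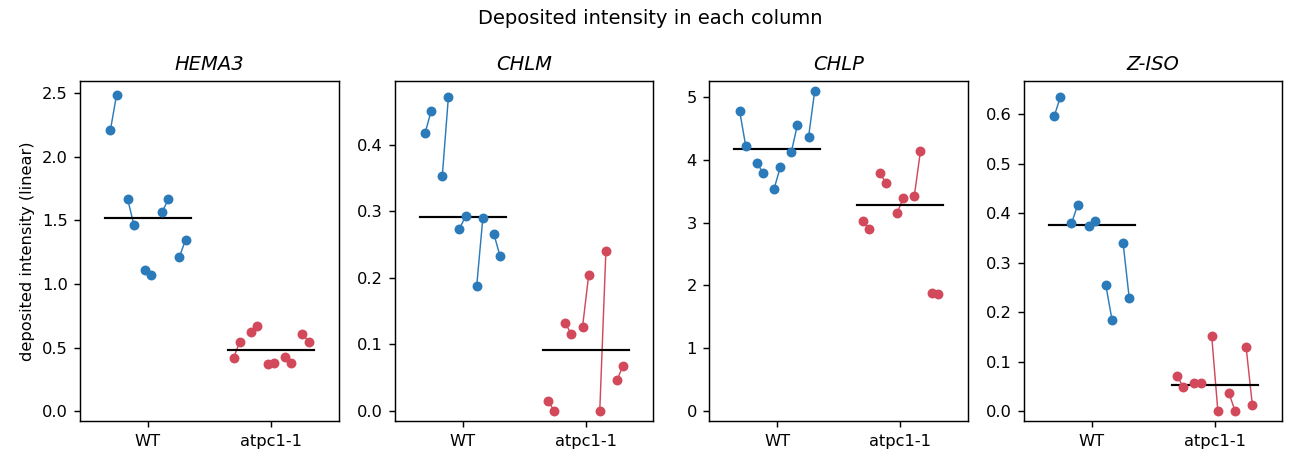
Deposited intensity (linear scale) of HEMA3, CHLM, CHLP and Z-ISO in the 10 WT and 10 atpc1-1 columns. Points are columns, thin lines join the 2 duplicate columns of a replicate (replicates 1 to 5 from left to right), and black bars are medians. All atpc1-1 points lie below all WT points for HEMA3 and Z-ISO, as in 21.0% of all rows. Both CHLM and Z-ISO have 2 atpc1-1 columns at 0.

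CHLM encodes magnesium-protoporphyrin IX methyltransferase, which makes the monomethyl ester on the chlorophyll branch. Its deposited intensity in WT columns ran from 0.188 through a median of 0.291 to 0.472. In atpc1-1 columns it ran from 0 through 0.0916 to 0.241, with 2 of 10 columns at 0. The genotypes overlapped in a pair of atpc1-1 columns that were above the lowest WT column. On the normalised log2 scale the WT replicates 1 to 5 were at -1.91, -1.96, -2.83, -2.85 and -2.31. The atpc1-1 replicates 1 to 5 were at -5.13, -2.74, -2.08, -1.37 and -3.02. A column at 0 carries no log2 value, so atpc1-1 replicates 1 and 4, the lowest and the highest of the 5, each rest on 1 column.

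CHLM averaged -2.37 ± 0.45 (SD, n = 5) across WT and -2.87 ± 1.42 (SD, n = 5) across atpc1-1, and its log2 difference of -0.49 (SE 0.59) was smaller than the SD of the atpc1-1 replicates. Without atpc1-1 replicate 1 the difference was 0.07. Its median rank moved from the 36.5th percentile in WT to the 29.1st in atpc1-1, but the atpc1-1 columns spread from the 7.14th to the 64.4th. That lowest rank is of a column at 0, tied with the other rows at 0, and its partner column held the highest. Among atpc1-1 columns above 0 the lowest rank was the 23.7th, within the WT range of 20.4 to 51.1, and the highest lay above that range. With zeros ranked in the normalisation the difference was 0.12. These were the 2 alternatives of 22 with a difference above 0, and in the other 20 it was below 0. When each 0 took its column's lowest positive value it was -0.90. The sign of the CHLM difference was thus mostly negative but did not hold under every alternative, and it was not settled.

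CHLP encodes geranylgeranyl reductase, which saturates the geranylgeranyl chain to the phytyl chain used for chlorophyll, tocopherols and phylloquinone. Its deposited intensity ran from 3.54 through a median of 4.17 to 5.09 in WT columns. In atpc1-1 columns it ran from 1.87 through 3.27 to 4.15. The 7 lowest atpc1-1 columns lay below all WT columns and the other 3 lay within the WT range. On the normalised log2 scale the WT replicates 1 to 5 were close together at 2.30, 2.08, 2.13, 2.21 and 2.20. The atpc1-1 replicates 1 to 5 were at 1.44, 2.08, 1.56, 1.84 and 1.07. Replicate 2 of atpc1-1 fell at the bottom of the WT range, and the other 4 lay below it.

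CHLP averaged 2.19 ± 0.09 (SD, n = 5) across WT and 1.60 ± 0.39 (SD, n = 5) across atpc1-1, a log2 difference of -0.59 (SE 0.24) or 1.501-fold. Its median rank made only a small step, from the 96.4th percentile in WT (range 96.0 to 97.1) to the 95.1st in atpc1-1 (range 92.5 to 96.3). Even so, 7 atpc1-1 columns ranked CHLP below every WT column, and the others lay within the WT range. Every column of both genotypes placed CHLP at or above the 92.5th percentile.

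Z-ISO encodes the ζ-carotene isomerase, which acts between the desaturases of phytoene and ζ-carotene on the way to lycopene. Its deposited intensity ran from 0.184 through a median of 0.376 to 0.635 in WT columns. In atpc1-1 columns it ran from 0 through 0.0519 to 0.152, with 2 of 10 columns at 0. The highest atpc1-1 column was below the lowest WT column, as in 21.0% of all rows, and the WT median was 7.25 times the atpc1-1 median. On this scale the median log2 difference of all tested rows was itself -1.22. On the normalised log2 scale the WT replicates 1 to 5 were at -1.35, -1.99, -2.27, -2.96 and -2.12. The atpc1-1 replicates 1 to 5 were at -3.54, -3.93, -2.13, -3.51 and -3.36. Replicate 3 of atpc1-1, the one that overlapped WT, rests on 1 column because its partner was at 0, as does replicate 4.

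Z-ISO averaged -2.14 ± 0.58 (SD, n = 5) across WT and -3.29 ± 0.68 (SD, n = 5) across atpc1-1, a log2 difference of -1.16 (SE 0.38) or 2.23-fold. Its median rank was at the 40.3rd percentile in WT and the 20.4th in atpc1-1, the widest step of the 4 genes. The ranges of rank overlapped, 20.4 to 61.6 for WT against 7.57 to 49.6 for atpc1-1. In 5 of 10 atpc1-1 columns Z-ISO ranked below every WT column, and 2 of these columns were at 0.

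**Figure D2:**
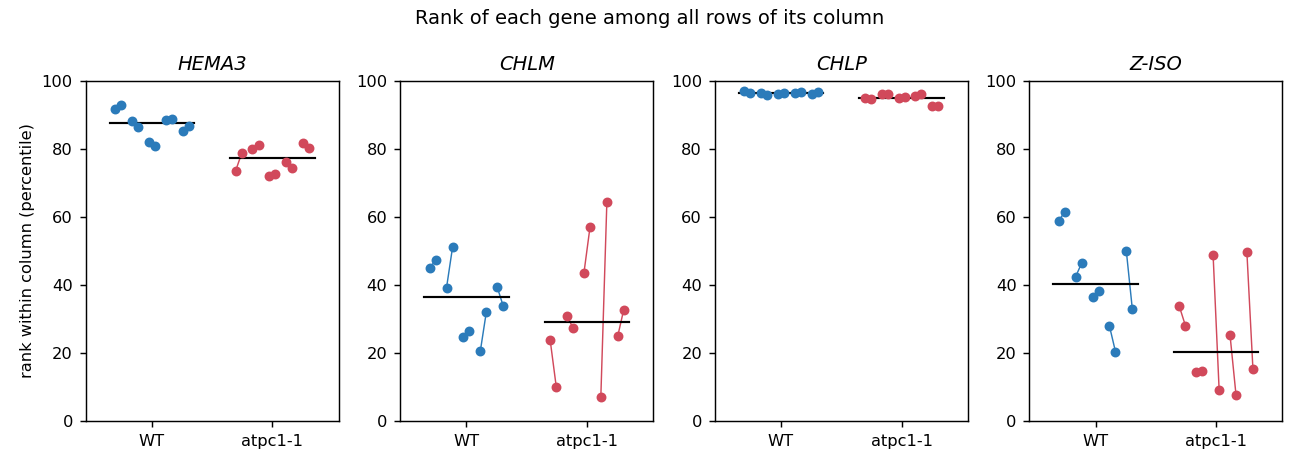
Rank of each gene among the 3439 rows of its column, in percentiles, for 10 WT and 10 atpc1-1 columns. Points are columns, thin lines join duplicate columns and black bars are medians. The HEMA3 median goes from 87.6 to 77.4, with ranges (81.0 to 92.9 and 72.0 to 81.7) that overlap narrowly, and CHLP stays at or above 92.5. The CHLM and Z-ISO points of atpc1-1, columns at 0 included, scatter widely, also between duplicates.

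If adjoining columns are duplicates, they show how precisely each gene was read within a genotype. In WT the median fold between duplicate columns was 1.11 for HEMA3, 1.14 for CHLM, 1.11 for CHLP and 1.10 for Z-ISO, against 1.15 for the median row of the table. In atpc1-1 it was 1.11 for HEMA3 and 1.05 for CHLP, but 1.47 for CHLM and 1.46 for Z-ISO over the 3 replicates with both columns above 0, against 1.44 for the median row. By this median, HEMA3 and CHLP were read as closely in the mutant as in WT. In Z-ISO the duplicate columns of 1 atpc1-1 replicate differed by 9.77-fold. The atpc1-1 pairs left out for CHLM and Z-ISO had a column at 0, as in CHLM at 0 and 0.241 in replicate 4. Between replicates the residual SD of the fit was 0.28 for CHLP, at the 6.58th percentile of the 3298 tested rows, and 0.41 for HEMA3, at the 23.1st. It was 0.63 for Z-ISO, at the 55.5th percentile, and 1.05 for CHLM, at the 85.0th.

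In the fit over all 3298 tested rows (limma, Benjamini-Hochberg adjustment, threshold 0.05), 24.5% of rows passed, 14.3% as lower and 10.2% as higher in atpc1-1. Higher rows were 41.7% of those called here, but 6.23% on the deposited scale and 55.2% with median centring. HEMA3 and Z-ISO were among those that passed as lower, and CHLM and CHLP were not. These 2 of 4 are printed beside the 24.5% only as a count, since the same contrast was known when the genes were chosen. All 4 log2 differences were below 0, with a median of -0.84, beside a median of -0.19 over all rows, of which 1928 were below 0. On the deposited scale the atpc1-1 columns lay entirely below the WT columns in 2 of the 4 genes and in 21.0% of all rows. For ranks that held in none of the 4 and in 2.62% of rows, and for normalised replicates in 1 of the 4, HEMA3, and in 10.3% of rows.

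The differences of all rows varied with their level. When the tested rows were divided into 10 equal groups by mean log2 level over both genotypes, the group that holds HEMA3 had a median difference of -0.13 (quartiles -0.60 and 0.51). HEMA3, at -1.09, was below that lower quartile. The group of Z-ISO had a median of -0.32 (quartiles -0.83 and 0.33), and Z-ISO at -1.16 was also below its lower quartile. CHLM at -0.49 stood near the median of its group, which was -0.45, and CHLP at -0.59 stood at the lower quartile of the brightest group, which was -0.58. This places each gene among rows of like level and tests nothing.

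**Figure D3:**
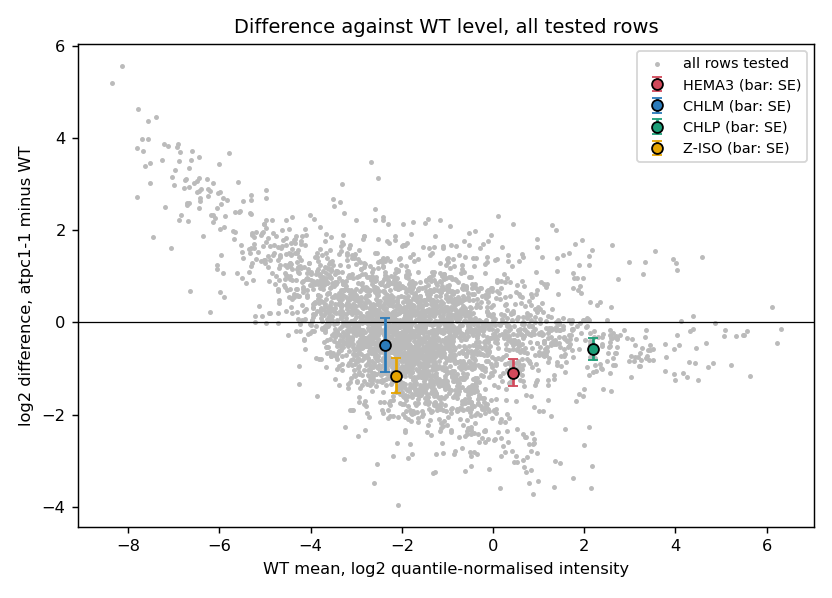
Log2 difference (atpc1-1 minus WT, y axis) against the WT mean log2 quantile-normalised intensity (x axis) for the 3298 tested rows in grey, with HEMA3, CHLM, CHLP and Z-ISO in colour and bars of 1 SE. The 4 genes lie below 0, HEMA3 at -1.09 and Z-ISO at -1.16, and the bar of CHLM crosses 0.

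How columns are scaled set the size of each difference and, for CHLP, its sign. On the deposited scale the difference was -1.66 for HEMA3, -1.90 for CHLM, -0.47 for CHLP and -2.57 for Z-ISO, where the median of all rows was -1.22 and 61.3% of rows passed. Relative to that median, HEMA3, CHLM and Z-ISO were lower and CHLP was higher. With median centring HEMA3 was at -0.49 and no longer passed, Z-ISO was at -1.40, CHLM at -0.73 and CHLP at 0.69, beside a median of -0.05 and 27.3% of rows that passed. Over all alternatives that kept every replicate, 18.3% to 61.3% of rows passed, and with a replicate left out 13.8% to 29.3% did. HEMA3 and Z-ISO kept a negative sign under every alternative run. HEMA3 passed in 22 of 23 alternatives and Z-ISO in 8 of 22. CHLM passed in 2 of 22 and CHLP in 3 of 23. Without WT replicate 5 the differences were -1.13 for HEMA3, -0.48 for CHLM, -0.58 for CHLP and -1.15 for Z-ISO, and Z-ISO no longer passed.

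**Figure D4:**
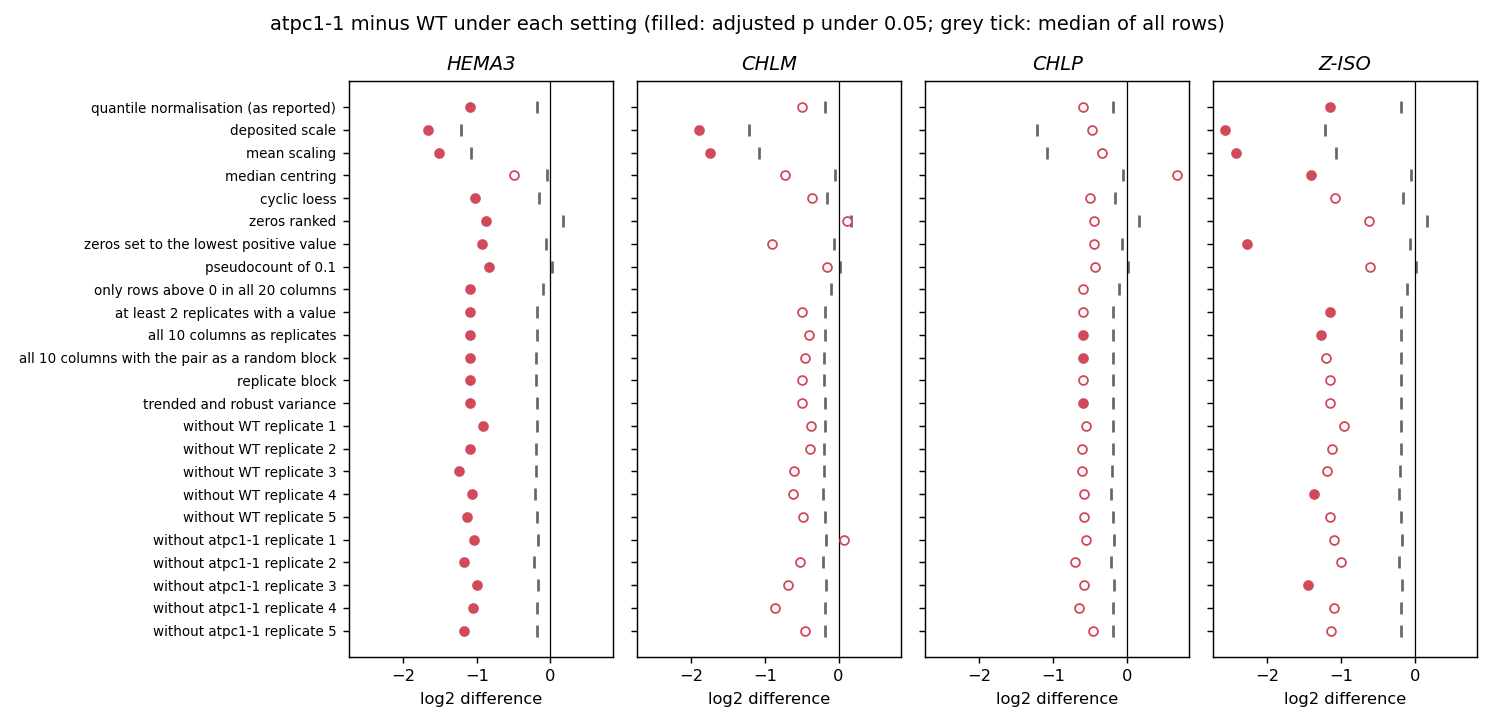
Log2 difference (atpc1-1 minus WT) of HEMA3, CHLM, CHLP and Z-ISO under each processing alternative and with each replicate left out. Filled points passed the adjusted threshold of 0.05 and open points did not, and grey ticks mark the median of all rows. HEMA3 and Z-ISO stay left of 0 throughout, CHLP moves to 0.69 with median centring and CHLM reaches 0.12 with zeros ranked.

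A ratio of 2 genes within the same column of deposited values is free of a constant factor for that column, but not of a change in the shape of its distribution. The log2 ratio of HEMA3 to CHLP stood at -0.93, -1.31, -1.77, -1.42 and -1.88 in WT replicates 1 to 5. In atpc1-1 replicates 1 to 5 it stood at -2.64, -2.52, -3.13, -3.24 and -1.70. HEMA3 was lower relative to CHLP in 4 atpc1-1 replicates than in any WT replicate, and replicate 5, where CHLP was at its lowest, lay within the WT range. The mean log2 ratio was -1.46 ± 0.38 (SD, n = 5) for WT and -2.65 ± 0.61 (SD, n = 5) for atpc1-1, a change of -1.18 or 2.27-fold, where the median row changed by -0.75 relative to CHLP and 74.6% of rows fell below it. The log2 ratio of CHLP to Z-ISO was 3.57 ± 0.61 (SD, n = 5) for WT and 5.63 ± 0.81 (SD, n = 5) for atpc1-1, higher by 2.06. After quantile normalisation the change relative to CHLP was smaller, at -0.50 for HEMA3 and -0.57 for Z-ISO, where the median row changed by 0.40. On both scales HEMA3 and Z-ISO were lower relative to CHLP than the median row was. The same CHLP value is subtracted on both sides there, so this only repeats that both genes had lower differences than the median row. The size of the change relative to CHLP depended on the scale. The ratio of HEMA3 to CHLM changed by 0.18, less than its SD of 1.66 in atpc1-1. Of the 6 pairs computed, the CHLM to Z-ISO ratio had the smallest change, -0.04, with an SD of 1.44 over 4 atpc1-1 replicates.

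The rest of the pathway is thinly covered. Of 88 genes listed for tetrapyrrole, chlorophyll, heme, carotenoid, isoprenoid precursor and tocopherol metabolism, 5 have a row of their own: the 4 genes above and SIRB. A further 3 rows list a pathway gene together with other genes and were not used. SIRB (AT1G50170) encodes sirohydrochlorin ferrochelatase, which inserts iron to make siroheme, the cofactor of nitrite and sulfite reductases, on a branch that leaves before protoporphyrin. SIRB, the 1 other measured gene of the list, did not pass in either direction: its log2 difference was 0.30 (SE 0.35, limma adjusted p = 0.557), from -2.62 ± 0.51 (SD, n = 5) to -2.32 ± 0.60 (SD, n = 5). The WT replicates of SIRB spanned -3.18 to -1.90 and the atpc1-1 replicates -3.17 to -1.75, so the groups overlapped almost fully. On the deposited scale SIRB had a median of 0.252 in WT and 0.119 in atpc1-1 columns, with 1 of 10 atpc1-1 columns at 0, and its median rank was at the 28.1st percentile in WT and the 40.5th in atpc1-1.

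Among rows that list 1 gene and were above 0 in all 20 columns, the patterns most like each pigment gene over the 10 replicates were found by the mean absolute log2 difference after each row was centred on its own mean. For HEMA3 the closest of 320 rows was AT1G62150 at 0.19, followed by AT3G49740, a pentatricopeptide repeat protein, at 0.22 and OTP85, a pentatricopeptide repeat protein of chloroplast RNA editing, at 0.23, where the median row was at 0.63. For CHLP they were AT3G44570 at 0.13, AT2G28540 at 0.16 and AT1G30700 at 0.18, against a median of 0.49. For Z-ISO they were AT4G32060 at 0.38, PPDK, the pyruvate, orthophosphate dikinase, at 0.39 and AT1G35510 at 0.42, against a median of 0.79. For CHLM they were AT5G19050 at 0.41, AT1G02260 at 0.44 and AT5G17280 at 0.46, against a median of 0.81. The close rows of HEMA3 and CHLP thus tracked them more tightly than those of the dim genes Z-ISO and CHLM, whose own replicates scattered more. Because likeness was measured over both genotypes, such rows share the genotype difference of their gene by selection, as in the HEMA3 neighbours at -1.08, -1.29 and -0.75, in the order named.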

How the data were processed

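One table of array intensities was used, with 20 columns matched to samples by accession. For the deposited intensities, the authors' array type, background correction, scaling and filters are stated in none of the sources used here. By their values they are linear, never negative and scaled to similar column means. Genes were named from the platform's annotation updated through RefSeq (assembly TAIR10.1, used for names only; 690 of 692 found). A value of 0 was treated as missing, values were log2 transformed without a pseudocount, quantile normalised with limma 3.58.1 (R 4.3.3) and averaged over duplicate columns. Rows with at least 3 of 5 replicates per genotype were tested (3298; 141 left out) with lmFit and eBayes, two-sided, genotype as the only term, called at a Benjamini-Hochberg adjusted p under 0.05. The number of arrays limits the precision. Alternatives covered scaling, zeros, filters, duplicates, variance and single replicates. The members, the pathway list and the tests were chosen with earlier results of these data known. The genes named are the 4 members, pathway genes with a row of their own and the 3 rows most like each member. No sequences are shown, since none were among the sources used here.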

Additional observations from a re-analysis of the deposited data

How the results depend on the processing

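Log2 differences moved by more than the replicate SD as follows. With mean scaling they were -1.75 for CHLM, -1.51 for HEMA3 and -2.43 for Z-ISO, and on the deposited scale -1.90, -1.66 and -2.57. Median centring gave 0.69 for CHLP and -0.49 for HEMA3. Z-ISO was at -2.28 when each 0 took its column's lowest positive value. With zeros ranked and with the pseudocount of 0.1 it was at -0.61, a shift smaller than that SD, and did not pass. With 1 replicate left out, no difference moved by more than that SD. The ranges were -0.87 to 0.07 for CHLM, -0.71 to -0.45 for CHLP, -1.24 to -0.91 for HEMA3 and -1.45 to -0.96 for Z-ISO. The number of the 4 genes that passed was 2, where 24.5% of all rows passed. It was 3 on the deposited scale (61.3% of rows), with mean scaling (55.1%) and with all 10 columns as replicates (42.8%). It was 1 with median centring (27.3%), cyclic loess (18.3%), zeros ranked (32.7%), a pseudocount of 0.1 (33.2%) and the replicate block (22.2%). That gene was Z-ISO with median centring and HEMA3 in the others. It was also 1 over rows above 0 in all 20 columns (36.1%), where only HEMA3 and CHLP could be tested. With a replicate left out it was 1 to 2, where 13.8% to 29.3% of rows passed.

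The fit called 337 rows higher and 471 lower. The higher calls numbered 126 on the deposited scale, 150 with mean scaling, 716 with zeros ranked, 605 with the pseudocount, 570 with all 10 columns as replicates and 198 to 426 with a replicate left out. The lower calls numbered 1896, 1666 and 293 on the deposited scale, with mean scaling and with cyclic loess, 840 with all 10 columns and 251 to 539 with a replicate left out. The share of higher calls was 41.7%, but 6.23% on the deposited scale, 8.26% with mean scaling, 55.2% with median centring, 66.5% with zeros ranked, 59.7% with each 0 at that lowest value, 53.0% with the pseudocount and 51.4% with cyclic loess. The causes were not tested.

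WT and atpc1-1 share replicate numbers. The deviations of same-numbered replicates correlated at 0.04 to 0.25, not all above 0.1. WT replicates 1, 2 and 5 were closest to the atpc1-1 replicate of their own number, and WT replicates 3 and 4 were not. The main fit did not pair the samples, and whether the numbers mark pairs is not known. The replicate block left HEMA3 and not Z-ISO past the threshold and gave 317 higher and 415 lower rows. Signal near the floor limits CHLM and Z-ISO, which had 2 of 10 atpc1-1 columns at 0.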

Other observations

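Among the 5 replicates of each genotype the widest gap to the nearest other replicate, divided by the range of all 5, was 0.680 (Z-ISO in atpc1-1), below Dixon's critical value of 0.71, over 10 groups of HEMA3, CHLM, CHLP, Z-ISO and SIRB. With 5 values this does not show that replicates lay close together: CHLM in atpc1-1 replicate 1 was at -5.13, and the next lowest replicate was at -3.02. The SIRB difference was 0.30 after quantile normalisation, but its deposited median was lower in atpc1-1 (0.119) than in WT (0.252). The 4 pigment genes had the same direction on that scale, where the median log2 difference of all tested rows was -1.22.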
